A study of Mus musculus with 2 samples.

Results

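The 8 genes described here, *Gdf15*, *Gadd45a*, *Gadd45b*, *Ddit3*, *Ddit4*, *Trib3*, *Atf4* and *Cdkn1a*, encode a stress-induced hormone and regulators of the integrated stress response, DNA damage and growth arrest. They were taken by symbol from the 33696 genes of the expression matrices. Their symbols matched 9 rows, because *Ddit3* had a second row, for an overlapping locus, with 0 UMIs in both libraries. The members were selected on results already obtained from these same libraries, so their levels over all cells are given as a description and support nothing by themselves.

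Single-cell RNA sequencing was performed on CD45 positive cells from the thalamus of C57B6/J mice, 12 weeks old, 21 days after a cortical brain injury. Both groups were injured, and both received antibody into the thalamus from day 7 to day 19 at 1.0 μg/μl, either control Ab or anti-CD9 Ab. There was 1 library per antibody. Cells of 4 mice were pooled for the thalamic libraries of the study, and that number was not repeated for the antibody groups. An effect of the antibody, a difference between pools of mice and a difference between libraries therefore cannot be told apart, no test was possible, and every interval is a 95% interval that covers counting error only.

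In the integrated stress response, kinases that sense unfolded protein, amino acid shortage, heme shortage or double-stranded RNA phosphorylate the translation factor eIF2. General translation then falls while the mRNA of the transcription factor ATF4 is translated more, so that the pathway can be active without more *Atf4* mRNA. ATF4 and its partner CHOP, the product of *Ddit3*, induce *Trib3*, *Ddit4* and *Gdf15*, while *Cdkn1a* and the *Gadd45* genes are also classical targets of p53 and of inflammatory signals.

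The libraries held 12245 barcodes with control Ab and 15173 after anti-CD9 Ab, and the study's quality limits kept 7467 and 9162 cells, with medians of 1880 and 1419 UMIs. At least 1 UMI of *Ptprc*, which encodes CD45, was found in 61.7% and 65.1% of them, and astrocyte-like and oligodendrocyte-like clusters, which should lack it, held 428 and 304 cells in the control Ab library against 78 and 94 in the other. The libraries shared 54 barcode sequences, 18 of them among the kept cells. When the members and their pathway genes were withheld from clustering, 24 clusters formed, and 17 could be named by listed markers, as 10 cell types. Neutrophil-like cells numbered 62 with control Ab and 2579 after anti-CD9 Ab, macrophage-like cells 208 and 1245, microglia-like cells 1873 and 807, with 2766 and 945 T cell-like cells. The macrophage-like cluster had 5 of 8 macrophage markers up and, as a larger share of its list, 4 of 6 monocyte markers, and took its name because more macrophage markers were among its 10 leading genes.

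One unnamed cluster was led by *Gdf15* and *Gadd45b*, although neither gene was used to build it, and is called the Gdf15-led cluster. It held 4 cells with control Ab and 923 after anti-CD9 Ab, with a median of 998 UMIs per cell in the latter. Its next leading genes were *Hilpda*, *Mreg* and *Ankrd33b*. It carried 1 of 11 neutrophil markers at 2 times or more the level of all other cells together, too few for a name. Those other cells included the neutrophil-like cells, and a marker found in fewer than 10% of the cluster's cells was not counted. Against cells of the anti-CD9 Ab library outside these groups, every listed neutrophil marker was higher, such as *S100a8* (2479 and 277 CPM) and *Csf3r* (441 and 176 CPM). One by one, 315 of its 927 cells (34.0%) carried neutrophil markers as their leading set, 603 carried no sufficient set, and the remaining cells fell to other types.

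The upstream 250 bases of the members' transcription starts, from RefSeq on GRCm38.p6, were searched on both strands for motifs of this pathway and of other responses. The core of the C/EBP-ATF composite site, TGATGNAA, was in the promoter of 3.53% of 27025 genes and of none of the 8 members, which says only that these letters are not in these windows. The core of the hypoxia response element, ACGTG, was in 16.6% of all promoters and in those of *Gdf15* (at 1 of its 2 listed starts), *Gadd45b* and *Ddit4*. The shares over all genes were read at the first listed start of each gene, where *Gdf15* had no match. The 3 member sequences with a match are shown because the hypoxia genes are followed below, with ACGTG on either strand in capitals. In *Gdf15* and *Gadd45b* the matches on both strands overlapped.
Gdf15, chr8:70632096-70632345, minus strand: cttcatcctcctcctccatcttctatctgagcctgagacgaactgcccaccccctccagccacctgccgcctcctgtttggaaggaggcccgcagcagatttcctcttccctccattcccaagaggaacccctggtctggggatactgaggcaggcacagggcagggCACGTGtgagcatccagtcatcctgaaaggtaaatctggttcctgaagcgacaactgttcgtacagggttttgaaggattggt
Gadd45b, chr10:80929841-80930090, plus strand: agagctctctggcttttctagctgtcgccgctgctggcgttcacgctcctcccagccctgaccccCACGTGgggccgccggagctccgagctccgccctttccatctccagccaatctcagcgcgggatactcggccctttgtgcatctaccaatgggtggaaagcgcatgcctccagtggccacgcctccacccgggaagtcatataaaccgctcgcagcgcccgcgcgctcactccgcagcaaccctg
Ddit4, chr10:59951771-59952020, minus strand: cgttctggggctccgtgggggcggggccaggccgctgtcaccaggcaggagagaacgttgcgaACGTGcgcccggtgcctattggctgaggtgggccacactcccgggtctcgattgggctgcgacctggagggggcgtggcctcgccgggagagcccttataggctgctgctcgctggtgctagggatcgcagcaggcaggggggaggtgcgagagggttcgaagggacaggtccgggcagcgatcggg
The AP-1 motif, TGANTCA, which reads the same on both strands, was in 6.87% of all promoters and in that of *Ddit3* among the members. No member's window held the cAMP response element TGACGTCA, the ER stress element or the NF-kB motif, which were in 1.62%, 0.122% and 1.40% of all promoters.

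*Gdf15*, the secreted hormone of the group, had 37 UMIs in all kept cells with control Ab and 1149 after anti-CD9 Ab, or 1.48 and 50.7 UMIs per 1000000 (CPM). Its log2 ratio, always given as anti-CD9 Ab relative to control Ab, was 5.09 (4.62 to 5.57). Such a value over all cells mixes how many cells of a type there were with the level in each. Of 15136 genes with 50 or more UMIs over both libraries, 7.41% were at least 2-fold higher with anti-CD9 Ab and 21.6% at least 2-fold lower. Of the 8 members, 5 were at least 2-fold higher and none at least 2-fold lower. Their median log2 ratio was 1.56, and that of all genes was -0.37. *Gadd45b*, whose product links stress to p38 and JNK signaling, went from 28.6 to 660.6 CPM (log2 ratio 4.53), its relative *Gadd45a* from 11.6 to 60.2 (2.38), *Cdkn1a*, the cell-cycle inhibitor p21, from 29.9 to 126 (2.07) and *Ddit4*, an inhibitor of mTORC1, from 18.6 to 38.3 (1.04). *Ddit3* (35.1 and 54.2 CPM) and *Atf4* (61.6 and 88.1 CPM) were higher by less than 2-fold, and *Trib3*, a pseudokinase that restrains ATF4, was at 3.05 and 3.04 CPM. In the barcodes outside the quality limits, 17.2% of 13664 genes were higher with anti-CD9 Ab by intervals that did not overlap and 36.1% were lower, and of the 8 members 6 were higher and 1, *Ddit3*, was lower.

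**Figure D1:**
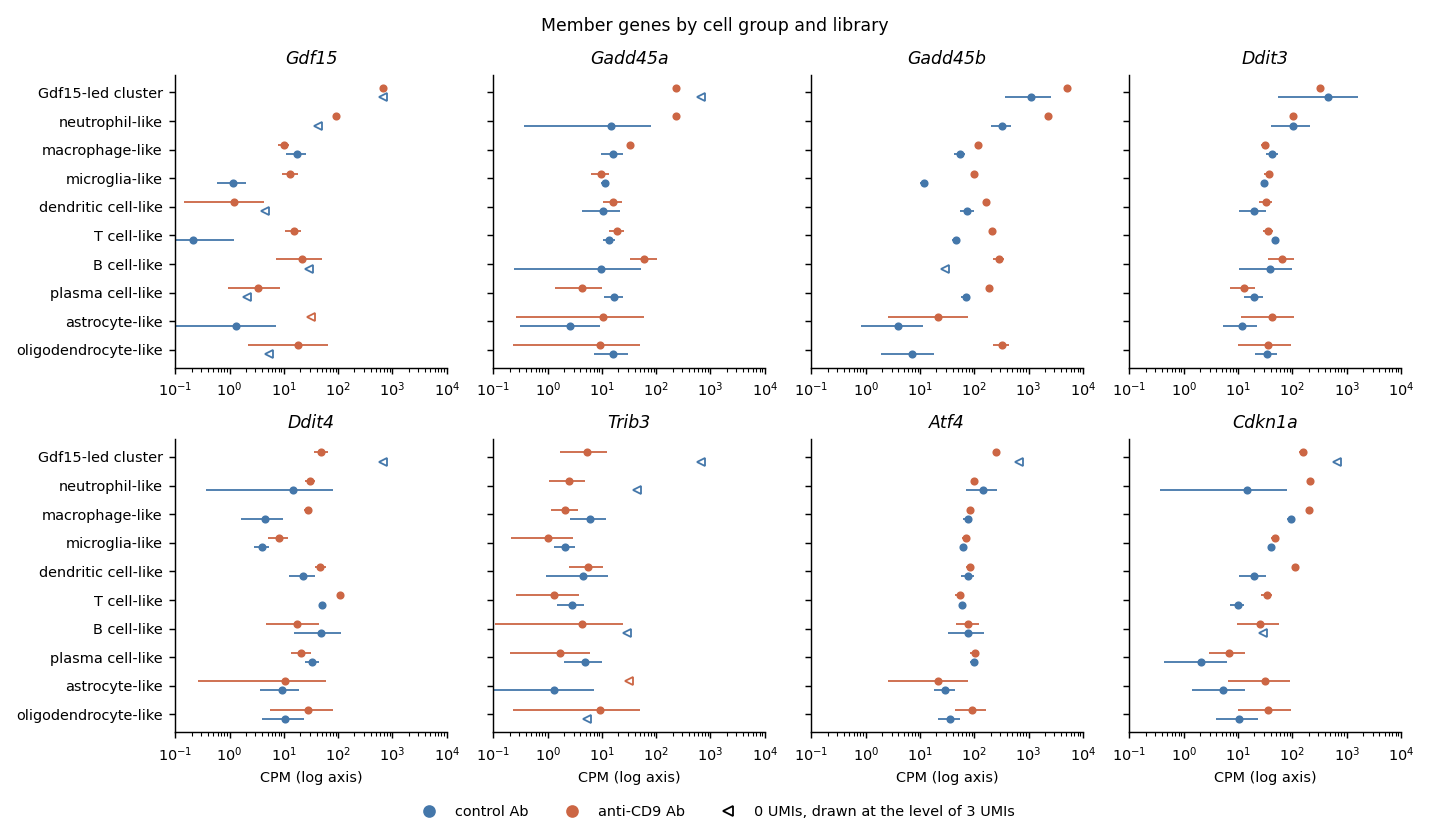
Level of each member (CPM, log axis) in each cell group with control Ab (blue) and anti-CD9 Ab (orange). Bars are 95% Poisson intervals, open triangles mark 0 UMIs and are drawn at the level that 3 UMIs would give; *Gdf15* reached 679 CPM in the Gdf15-led cluster with anti-CD9 Ab, against 13.2 in microglia-like cells.

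With control Ab, 23 of the 37 *Gdf15* UMIs (62.2%, 44.8 to 77.5%) lay in macrophage-like cells, which were 2.79% of the kept cells, and 12 lay in microglia-like cells. With anti-CD9 Ab, 649 of 1149 (56.5%, 53.6 to 59.4%) lay in the Gdf15-led cluster and 292 (25.4%, 22.9 to 28.0%) in neutrophil-like cells. Those groups held 4.22% and 14.2% of all UMIs of that library. The Gdf15-led cluster was picked because *Gdf15* led it, so its share of *Gdf15* UMIs is a description only. The neutrophil-like share depended on clustering, and was 82.5% when members and pathway genes were allowed to shape the clusters. *Gadd45b* was spread in the same groups, with 33.0% of its UMIs in the Gdf15-led cluster and 48.4% in neutrophil-like cells, while 55.0% of *Gadd45a* UMIs were in neutrophil-like cells. *Cdkn1a* lay mainly in macrophage-like cells (47.4%), and *Ddit4* was divided between T cell-like cells (28.7%) and macrophage-like cells (21.1%). Of *Atf4* UMIs, 12.0% were in the Gdf15-led cluster and 27.6% in macrophage-like cells, near the 29.2% of all UMIs that macrophage-like cells held.

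**Figure D2:**
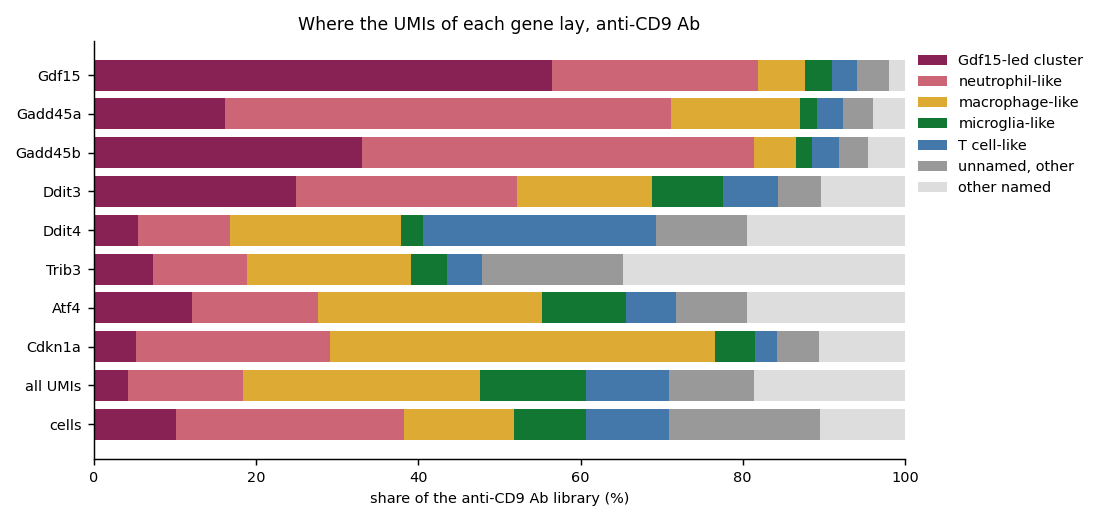
Share (%) of each member's UMIs that lay in each cell group of the anti-CD9 Ab library, with the shares of all UMIs and of cells in the lowest bars. The Gdf15-led cluster and the neutrophil-like cells together held 81.9% of *Gdf15* UMIs.

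*Gdf15* UMIs were concentrated in few cells. In the Gdf15-led cluster, 158 of 923 cells (17.1%) had any, and the tenth of cells with the most held 88.8% of them, up to 38 in 1 cell. In neutrophil-like cells of the cluster led by *Cxcl2* and *Ccl4*, 37 of 1395 cells held all 289 UMIs, up to 53 in 1 cell. *Gadd45b* was spread more widely, with a UMI in 80.4% and 77.4% of the cells of these clusters. Thinned to 500 UMIs per cell, *Gadd45b* was found in 87.2% (79.4 to 92.8%) of the 109 cells of the Gdf15-led cluster with a *Gdf15* UMI and in 65.2% (61.9 to 68.5%) of the 814 without. *Ddit3* was found in 10.1% (5.15 to 17.3%) and 13.1% (10.9 to 15.7%), and *Atf4* in 16.5% (10.1 to 24.8%) and 10.1% (8.09 to 12.4%), so the intervals overlapped for both.

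Within the anti-CD9 Ab library, the neutrophil-like cells fell in 2 clusters. The first was led by *Retnlg*, *S100a8* and *S100a9*, granule and calprotectin genes of mature neutrophils, and held 1184 cells. The second was led by the chemokine genes *Cxcl2*, *Ccl4*, *Cxcl10* and *Ccl3* with the interferon-induced *Rsad2*, and held 1395. *Gdf15* was at 2.25 CPM (0.464 to 6.57) in the *Retnlg*-led cluster, at 153 (136 to 172) in the *Cxcl2*-led cluster and at 679 (628 to 734) in the Gdf15-led cluster. Since clusters were compared here with cells they were built from, these are descriptions. *Gadd45b* followed the same order, at 535, 3468 and 5170 CPM, as did *Ddit3* at 86.2, 117 and 320. *Atf4* was at 109, 88.6 and 251 CPM. *Gadd45a* hardly differed, at 218, 244 and 231 CPM with overlapping intervals, and *Cdkn1a* was highest in the *Cxcl2*-led cluster, at 164, 246 and 156 CPM. *Trib3* had 4, 4 and 5 UMIs.

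Most neutrophil markers ran the other way. *S100a8* and *S100a9* made up most of the sum of the 11 listed markers, which came to 62750 CPM in the *Retnlg*-led cluster, 29610 in the *Cxcl2*-led cluster, 7479 in the Gdf15-led cluster and 1137 in all other cells of that library. *Csf3r*, the G-CSF receptor, was at 1964, 521, 441 and 176 CPM, and *Cxcr2*, the neutrophil chemokine receptor, at 1065, 190, 36.6 and 12.7. Not every marker fell from the *Retnlg*-led to the *Cxcl2*-led cluster: *G0s2* was at 2642 and 3256 CPM and *Hdc* at 1675 and 1548, and both were lower in the Gdf15-led cluster, at 488 and 100.5. *Ptprc* was at 1694, 781, 356 and 722 CPM. Ribosomal protein genes took 3.28%, 2.33%, 4.67% and 9.97% of UMIs.

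**Figure D3:**
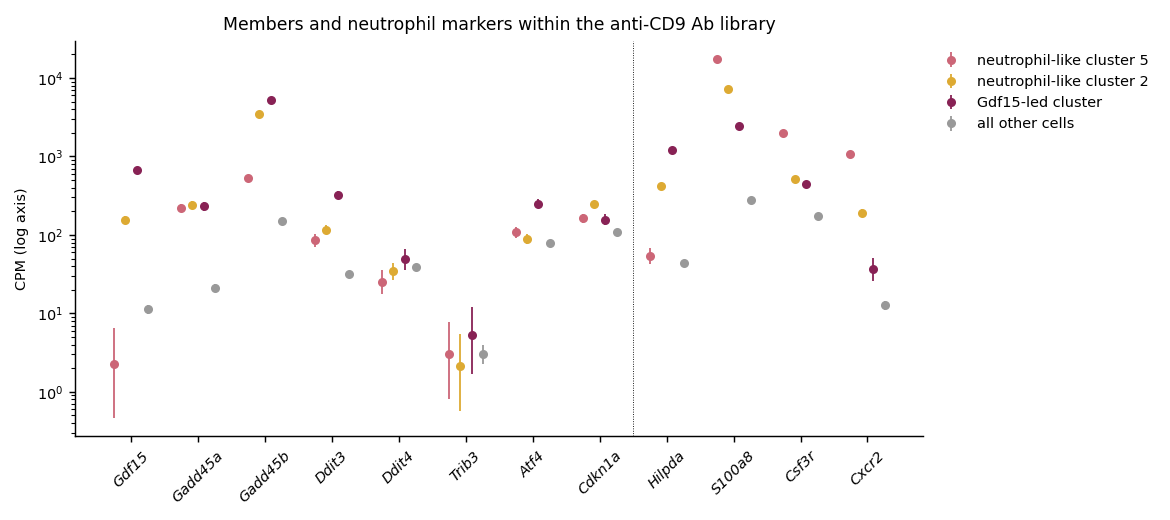
Levels (CPM, log axis) of the members, of *Hilpda* and of 3 neutrophil markers in the 2 neutrophil-like clusters, the Gdf15-led cluster and all other cells of the anti-CD9 Ab library, with 95% Poisson intervals. *Gdf15*, *Gadd45b* and *Hilpda* climb toward the Gdf15-led cluster while *S100a8*, *Csf3r* and *Cxcr2* descend.

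Of 5014 genes compared between the Gdf15-led and the *Retnlg*-led cluster, 14.3% were at least 2-fold higher in the Gdf15-led cluster and 18.3% at least 2-fold lower, with a median log2 ratio near 0 (0.003). Of 7 members with enough UMIs, 4 were at least 2-fold higher and none lower, but the clusters were split on correlated genes and the members led 1 of them. Of 10 ATF4 targets, 3 were at least 2-fold higher and none lower (median 0.28). They included *Atf3* (61.5 and 231 CPM), itself a stress transcription factor, and *Slc3a2* (145 and 420), the heavy chain of amino acid transporters, while *Cebpb* went from 4770 to 2572 CPM. *Asns* and *Chac1*, classical amino acid response genes, had 5 and 2 UMIs in the Gdf15-led cluster. Of 10 p53 targets, 5 were at least 2-fold higher, among them *Bax* (110 and 502 CPM) and *Mdm2* (127 and 516), and 2 lower, *Plk3* and *Btg2*. Of 9 hypoxia genes, 4 were at least 2-fold higher and none lower, with *Hilpda*, a lipid droplet protein, at 54.0 and 1206 CPM and *Vegfa* at 18.0 and 107. The heat shock genes *Hspa1a* (3.75 and 157 CPM) and *Hspa1b* (6.75 and 199) were higher, and 7 of the 12 dissociation and immediate early genes lower, including *Fos* (721 and 69.1) and *Egr1* (535 and 33.5). *Gadd45g*, the third *Gadd45* gene, was at 42.7 and 443 CPM.

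Against the *Cxcl2*-led cluster, 28.7% of 4858 genes were at least 2-fold higher in the Gdf15-led cluster and 11.7% at least 2-fold lower. The median was 0.53, and 3 of 7 members were higher. These 3 included *Gdf15*, on which the Gdf15-led cluster was picked, so the member count is a description only. Between the neutrophil-like clusters, 8.25% of 5200 genes were at least 2-fold higher in the *Cxcl2*-led cluster and 27.4% at least 2-fold lower. Of 7 members, 2 were higher, *Gdf15* and *Gadd45b*. *Gdf15* had 3 UMIs in the *Retnlg*-led cluster and 289 in the *Cxcl2*-led cluster. It had enough UMIs to be counted only through the *Cxcl2*-led cluster, so this member count is a description only as well.

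Few neutrophil-like cells were found with control Ab, so that the antibodies could hardly be compared in them. *Gdf15* had 0 UMIs among 69128 UMIs of 62 cells (upper Poisson limit 53.4 CPM), and 90.7 CPM (80.6 to 102) with anti-CD9 Ab. With 0 set to 3 UMIs, or 43.4 CPM, the log2 ratio was 1.06, an approximate lower bound. Its interval (-0.58 to 2.70) treats those 3 UMIs as counted and includes no change. The Poisson limits of both levels did not overlap, but they cover counting error only and mix both clusters. Of the 292 *Gdf15* UMIs with anti-CD9 Ab, 289 lay in the *Cxcl2*-led cluster, at 153 CPM. The 11 control Ab cells of that cluster had 0 UMIs, with an upper Poisson limit of 383 CPM. No difference between the antibodies could be read there. Over all neutrophil-like cells, *Gadd45b* was at 318 CPM (22 UMIs) and 2253 CPM, a log2 ratio of 2.82 (2.22 to 3.43), and *Atf4* at 145 (10 UMIs) and 96.9 CPM (-0.58, -1.49 to 0.33). *Gadd45a* and *Cdkn1a* each had 1 UMI with control Ab, with log2 ratios of 4.01 (1.18 to 6.84) and 3.87 (1.04 to 6.70). The clusters that held these cells differed between the libraries, with 51 of the 62 control Ab cells in the *Retnlg*-led cluster. Within that cluster alone *Gdf15* had 0 and 3 UMIs and *Gadd45b* was at 252 and 535 CPM (1.09, 0.35 to 1.82). There, 19.6% of 3771 genes were at least 2-fold higher with anti-CD9 Ab and 8.22% at least 2-fold lower, with a median of 0.11, and 3 of 5 members were higher. Of these 3, *Gadd45a* and *Cdkn1a* each had 1 UMI with control Ab, against 291 and 219. They passed the limit of 50 UMIs only through the anti-CD9 Ab library, so the member count supports nothing.

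Outside the neutrophil-like cells and the Gdf15-led cluster, *Gdf15* was at 1.49 CPM (37 UMIs) with control Ab and 11.2 (208 UMIs) after anti-CD9 Ab, giving a log2 ratio of 2.92 (2.41 to 3.42). There, 5.68% of 14889 genes were at least 2-fold higher with anti-CD9 Ab and 17.8% at least 2-fold lower, and 4 of 8 members were higher. These values still mix cell numbers with levels. Macrophage-like cells went from 5.34% to 29.2% of all UMIs, and their own *Gdf15* level was lower with anti-CD9 Ab. An unnamed cluster led by *Ighg1* and *Mzb1* went from 31 to 1196 cells. Many of the *Gdf15* UMIs of the remaining anti-CD9 Ab cells lay in barcodes scored as doublets. Members and neutrophil markers were not withheld from the doublet scoring. Cells that carried their UMIs could be scored as doublets on that account, so values without doublets are not an independent check. With doublets left out, *Gdf15* was at 1.59 and 4.49 CPM (1.497, 0.86 to 2.13) and *Gadd45b* at 25.5 and 95.1 (1.90, 1.75 to 2.05). Of the 11 neutrophil markers, 8 were at least 2-fold higher in these remaining cells, before doublets were left out.

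In microglia-like cells, *Gdf15* was at 1.14 CPM with control Ab (12 UMIs) and 13.2 after anti-CD9 Ab (39 UMIs), giving a log2 ratio of 3.53 (2.60 to 4.47), and *Gadd45b* was at 12.0 and 99.6 CPM (3.06, 2.75 to 3.36). Predicted doublets were 13.9% of the anti-CD9 Ab microglia-like cells and held 33 of the 39 *Gdf15* UMIs and 253 of the 294 *Gadd45b* UMIs. Without them, *Gdf15* was at 0.819 and 2.54 CPM, from 7 and 6 UMIs (1.63, 0.06 to 3.21), and *Gadd45b* at 9.60 and 17.4 (0.86, 0.31 to 1.40). The neutrophil markers moved with these values, with 8 of 9 measured markers at least 2-fold higher with anti-CD9 Ab in all microglia-like cells (median 2.36) and none of 6 without the doublets (median 0.10). Of 6 macrophage markers, 3 were at least 2-fold higher, and none of 4 without doublets. T cell markers were lower, all 6 measured by at least 2-fold. *S100a8* and *S100a9* together were at 73.9 and 546 CPM in all microglia-like cells.

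*Ddit4* aside, the other members with enough UMIs were less than 2-fold apart in microglia-like cells as a whole. *Atf4* was at 63.1 and 69.8 CPM (0.14, -0.08 to 0.37), *Ddit3* at 30.03 and 36.6 (0.28, -0.03 to 0.60), *Cdkn1a* at 39.6 and 47.8 (0.27, -0.01 to 0.54) and *Gadd45a* at 11.5 and 9.48 (-0.28, -0.87 to 0.32). Without doublets *Gadd45a* was at 12.4 and 6.78 CPM (-0.87, -1.63 to -0.11). *Ddit4* was at 3.99 and 8.13 CPM (1.03, 0.30 to 1.75). Of 11089 genes, 3.38% were at least 2-fold higher with anti-CD9 Ab and 4.48% lower. Of 7 members, 3 were higher and none lower, with a median of 0.28 and of 0.02 for all genes. Of these 3, *Gdf15* (12 and 39 UMIs) passed the limit of 50 UMIs only with the UMIs of the anti-CD9 Ab library. Without doublets, 2.57% of 10585 genes were at least 2-fold higher and 3.93% lower, and no member of the 5 with enough UMIs passed 2-fold either way (median 0.11). *Gdf15*, *Ddit4* and *Trib3* passed 2-fold there but had too few UMIs to be counted. *Ddit4* was at 3.28 and 7.20 CPM from 28 and 17 UMIs (1.14, 0.27 to 2.005). *Trib3* was at 1.99 and 0.847 CPM from 17 and 2 UMIs (-1.23, -3.345 to 0.88). By state, *Cdkn1a* was at 17.8 CPM (13.7 to 22.7) with control Ab and 46.7 (36.3 to 59.2) after anti-CD9 Ab in the cluster led by *Siglech* and *P2ry12*, homeostatic genes, where 2.93% of the anti-CD9 Ab cells were predicted doublets, and at 50.7 and 48.8 CPM in the cluster led by *Lpl*, *Cst7* and *Spp1*, genes of disease-associated microglia. In the *Siglech*-led cluster, *Gadd45b* was at 5.64 (3.45 to 8.71) and 24.7 CPM (17.3 to 34.2). *Gadd45a* was lower there, at 10.2 and 6.87 CPM, with overlapping intervals. In the *Lpl*-led cluster *Gadd45b* was at 15.2 and 172.5 CPM, and 27.3% of the anti-CD9 Ab cells were predicted doublets.

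In macrophage-like cells, led by *Arg1* and *F13a1*, *Gdf15* was lower with anti-CD9 Ab. It was at 17.3 CPM (23 UMIs in 21 of 208 cells) with control Ab and at 9.98 CPM (66 UMIs in 31 of 1245 cells) after anti-CD9 Ab, giving a log2 ratio of -0.79 (-1.48 to -0.11). Without doublets it was at 19.7 and 6.38 CPM (-1.63, -2.44 to -0.81). *Cdkn1a* was at 94.6 and 205 CPM (1.11, 0.85 to 1.38) and, without doublets, at 102 and 196.5 (0.95, 0.66 to 1.23). *Ddit4* was at 4.50 (6 UMIs) and 27.7 CPM (2.62, 1.45 to 3.79), with 0 and 109 UMIs without doublets. With 0 set to 3 UMIs, its log2 ratio without doublets was 3.26 (1.61 to 4.92). *Gadd45a* (15.8 and 32.8 CPM) and *Gadd45b* (54.1 and 118 CPM) were 2.08-fold and 2.17-fold higher, and 1.47-fold and 1.49-fold without doublets. *Ddit3* was at 42.8 and 30.9 CPM (-0.47, -0.90 to -0.05), *Atf4* at 75.8 and 83.4 (0.14, -0.17 to 0.44) and *Trib3* at 6.01 and 2.12 from 8 and 14 UMIs (-1.50, -2.76 to -0.25). Of 9027 genes, 8.11% were at least 2-fold higher and 6.48% lower. Of 7 members, 4 were higher and none lower (median 1.06, all genes -0.02), with *Trib3* left out for too few UMIs. Of these 4, *Gadd45a* (21 and 217 UMIs) and *Ddit4* (6 and 183) passed the limit of 50 UMIs only through the anti-CD9 Ab library. At a finer clustering resolution of 1.2, the macrophage name went to 171 cells with control Ab and 538 after anti-CD9 Ab, and a monocyte-like group of 29 and 699 cells separated. There, the median over 5 members in macrophage-like cells was -0.04, and it was 0.14 with cells chosen one by one by their markers. In the main clustering without doublets, 8.01% of 8024 genes were at least 2-fold higher and 5.89% lower, and 1 of 6 members was higher (median 0.57). That member, *Ddit4*, had 0 UMIs with control Ab and passed the limit only through the anti-CD9 Ab library. *Gdf15* (22 and 27 UMIs) and *Trib3* (8 and 7 UMIs) were both at least 2-fold lower there, but had too few UMIs to be counted. Other markers moved as well within this cluster. All 6 monocyte markers were at least 2-fold higher with anti-CD9 Ab (median 1.81), as were 5 of 7 macrophage markers and 6 of 8 neutrophil markers, and 5 of 7 microglia markers were at least 2-fold lower. Without doublets, 3 of 6 neutrophil markers and all 6 monocyte markers were higher. Their part in the members' values was not tested.

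In T cell-like cells, *Gdf15* had 1 UMI with control Ab and 35 after anti-CD9 Ab (0.214 and 15.1 CPM, log2 ratio 6.14, 3.27 to 9.01). Predicted doublets held 34 of the 35, so that without them each library had 1 UMI. *Gadd45b* was at 45.5 and 208 CPM (4.57-fold) and without doublets at 45.4 and 106 (1.22, 0.93 to 1.51). *Ddit4* was at 50.04 and 107 CPM (1.10, 0.84 to 1.36) and without doublets at 49.0 and 112 (1.19, 0.91 to 1.47). *Cdkn1a* was at 9.84 and 34.0 CPM (1.79, 1.26 to 2.31) and without doublets at 7.69 and 27.7 (1.85, 1.21 to 2.48). *Ddit3* was at 49.0 and 35.7 CPM (-0.46, -0.82 to -0.09), and *Atf4* at 59.5 and 53.8 (-0.14, -0.45 to 0.16). Of 9489 genes, 2.81% were at least 2-fold higher and 2.17% lower, and of 6 members 3 were higher and none lower (median 0.79, all genes -0.10). Of these 3, *Cdkn1a* (46 and 79 UMIs) passed the limit of 50 UMIs only through the anti-CD9 Ab library. Without doublets, 1.51% of 9084 genes were higher and 2.32% lower, and 3 of 6 members were at least 2-fold higher (median 0.52). *Gadd45a* turned in direction, at 13.5 and 18.9 CPM (0.49, -0.07 to 1.05) in all T cell-like cells and at 14.2 and 7.98 (-0.83, -1.65 to -0.01) without doublets, where 3 of the 6 members were below 0. All 10 neutrophil markers measured in T cell-like cells were at least 2-fold higher (median 4.69), and 3 of 4 without doublets (median 1.93). Both measured macrophage markers were at least 2-fold higher (median 2.56), and all 4 microglia markers were lower, 1 of them by at least 2-fold.

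Dendritic cell-like cells came from a cluster led by *Wdfy4* and *Zfp366* (102 cells with control Ab, 222 after anti-CD9 Ab) and a cluster led by *Ccr7* and *Fscn1* (18 and 160 cells), so that the mix differed between the libraries. Over both, 7.09% of 6290 genes were at least 2-fold higher with anti-CD9 Ab and 3.5% lower, and 3 of 5 members, *Gadd45b*, *Ddit4* and *Cdkn1a*, were higher. These 3 had 49, 15 and 13 UMIs with control Ab, against 270, 78 and 186. They passed the limit of 50 UMIs only through the anti-CD9 Ab library, so the member count supports nothing. *Gadd45b* was at 73.5 and 163 CPM over both clusters, but at 24.9 (13.9 to 41.1) and 48.4 (36.5 to 62.8) in the *Wdfy4*-led cluster and at 526 (364 to 735) and 429 (374 to 491) in the *Ccr7*-led cluster. *Cdkn1a* was at 19.5 and 112 CPM (2.53, 1.72 to 3.34), with 11.6 and 77.8 in the *Wdfy4*-led cluster and 92.8 (6 UMIs) and 193 in the *Ccr7*-led cluster. *Ddit4* was at 24.9 and 47.5 CPM in the *Wdfy4*-led cluster and had 0 and 23 UMIs in the *Ccr7*-led cluster. *Gdf15* had 0 and 2 UMIs, too few for a ratio. Of 6 neutrophil markers measured in these cells, 4 were at least 2-fold higher, as were all 4 macrophage markers (median 1.63) and 2 of 4 monocyte markers, and all 6 T cell markers were at least 2-fold lower. Their part in these values was not tested.

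**Figure D4:**
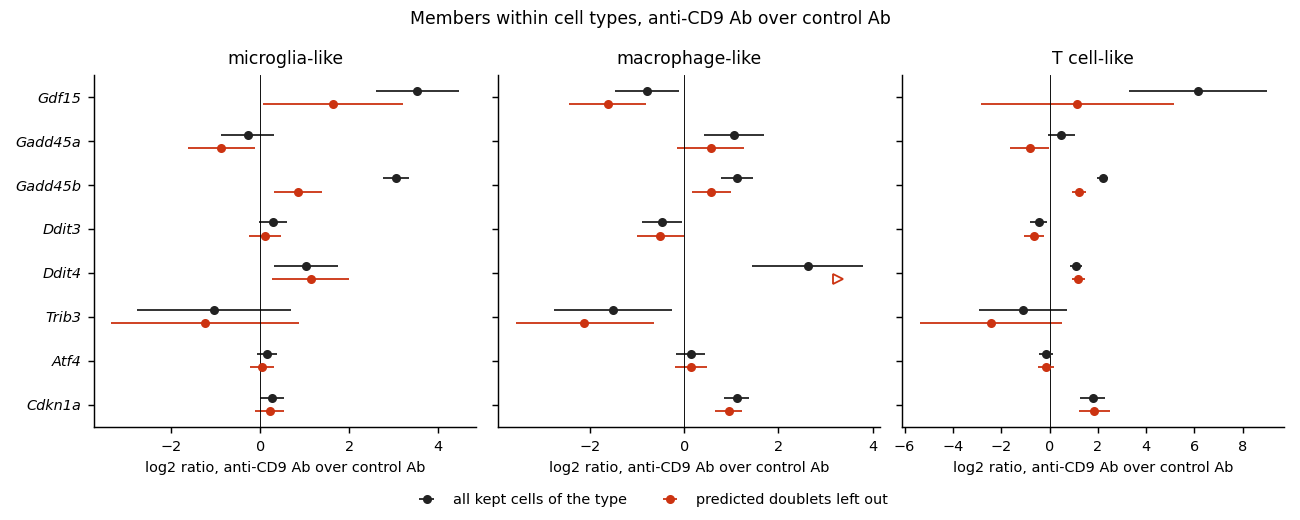
Log2 ratio (anti-CD9 Ab to control Ab) of each member in microglia-like, macrophage-like and T cell-like cells, with all cells (black) and without predicted doublets (red). Bars are 95% counting intervals and the open triangle is a lower bound; the *Gdf15* ratio drops from 3.53 to 1.63 in microglia-like cells and from -0.79 to -1.63 in macrophage-like cells when doublets are left out.

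UMIs of neutrophil marker genes were also found in other groups of the anti-CD9 Ab library. *S100a8* and *S100a9* together were at 32900 CPM in neutrophil-like cells, and at 1612 in B cell-like, 1051 in T cell-like and 239 in plasma cell-like cells, which should lack them, and at 353 in macrophage-like cells. In the control Ab library, with its 62 neutrophil-like cells, they were at 1082 CPM in B cell-like cells (113 UMIs), 22.0 in T cell-like and 128 in macrophage-like cells. Per 1000 UMIs of these 2 genes, the neutrophil-like and Gdf15-led cells together had 8.43 *Gdf15* UMIs and 109 *Gadd45b* UMIs. Taken apart, neutrophil-like cells had 2.76 and 68.5, and the Gdf15-led cluster 114.5 and 872. T cell-like cells had 14.3 and 198, B cell-like cells 13.4 and 174, microglia-like cells 24.2 and 182, and macrophage-like cells 28.3 and 334. The source of these UMIs was not tested. Thinned to 500 UMIs, a *Gdf15* UMI was found in 11.8% (9.80 to 14.1%) of cells of the Gdf15-led cluster and in 0.212% of T cell-like, 0.562% of macrophage-like and 0.620% of microglia-like cells. Unthinned, the shares were 17.1%, 1.16%, 2.49% and 2.23%. Median depth was 998 UMIs in the Gdf15-led cluster, 5038 in the macrophage-like cluster and between 1980 and 2941 over the T cell-like clusters. In the control Ab library, thinned cells with a *Gdf15* UMI were 0.481% of macrophage-like and 0.0534% of microglia-like cells.

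Other genes of the pathway, and genes of separate responses such as p53, hypoxia and glucocorticoid, were read from 10 gene lists. The lists were read in cell types with cells in both libraries. Over all genes, 3.38% were at least 2-fold higher with anti-CD9 Ab and 4.48% lower in microglia-like cells. These shares were 8.11% and 6.48% in macrophage-like cells, and 2.81% and 2.17% in T cell-like cells. In microglia-like cells, 2 of 24 ATF4 targets were at least 2-fold higher with anti-CD9 Ab and 2 at least 2-fold lower, with a median of -0.15. *Slc7a11*, the cystine transporter (15.9 and 76.9 CPM), and *Cebpb* (168 and 493) were highest, and *Atf3* (79.5 and 35.2) and *Asns* (7.13 and 2.71) lowest. Without doublets 1 target, *Cebpb*, stayed at least 2-fold higher. In macrophage-like cells, 3 of 21 targets were at least 2-fold higher and 4 lower (median -0.39), with *Slc7a11* at 57.1 and 259 CPM and *Phgdh*, which starts serine synthesis, at 33.0 and 5.14. In T cell-like cells, 2 of 22 were higher and 1 lower (median -0.40), and none of 20 was higher without doublets.

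The eIF2 kinases and phosphatase subunits gave none of 6 past 2-fold in microglia-like and T cell-like cells. In macrophage-like cells *Ppp1r15a*, the stress-induced phosphatase subunit, was at 7.51 and 20.4 CPM (1.44, 0.52 to 2.37) and was the 1 gene of 6 at least 2-fold higher. The 8 eIF2 and eIF2B subunits gave none higher in these types, and 1 at least 2-fold lower, *Eif2b3* in macrophage-like cells (37.5 and 16.04 CPM). Of 18 unfolded protein response genes, none passed 2-fold in microglia-like, macrophage-like or T cell-like cells, with medians of -0.06, -0.23 and 0.12. The receptor genes of GDF15 were almost absent from these cells, with 0 UMIs of *Gfral* in both libraries and 4 and 1 of *Ret*.

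The p53 targets gave 2 of 14 at least 2-fold higher in microglia-like cells, 1 of 14 higher and 2 lower in macrophage-like cells, and none of 13 in T cell-like cells. *Fas*, a death receptor, had the highest ratio of the list in each (5.99 and 25.4, 17.3 and 54.6, and 25.02 and 48.2 CPM). Hypoxia genes were higher in macrophage-like cells, where 6 of 9 were at least 2-fold higher and none lower (median 1.69), also without doublets (6 of 9, median 1.60). Over all genes in these cells, 8.11% were at least 2-fold higher and 6.48% lower. The mix of cells in this cluster differed between the libraries, with 29 and 699 monocyte-like cells at a resolution of 1.2. Its part in the hypoxia values was not tested. *Vegfa* was at 6.01 and 56.3 CPM (3.23, 2.22 to 4.24) and *Egln3*, an oxygen sensor, at 11.3 and 88.2 (2.97, 2.23 to 3.71). In microglia-like and T cell-like cells 1 of 8 was higher. Of the glucocorticoid response genes, *Fkbp5* was at 113 and 402 CPM in microglia-like cells, 33.8 and 84.3 in macrophage-like cells and 103 and 208 in T cell-like cells. The list as a whole was mixed. Over all kept cells, 3 of its 5 genes were higher and 2 lower, with log2 ratios from -0.92 to 1.23. Outside the neutrophil-like cells and the Gdf15-led cluster, 3 were higher and 2 lower, and none passed 2-fold. The dissociation and immediate early genes, whose RNA can rise while tissue is handled, gave 2 of 10 higher and 2 lower in microglia-like cells (none higher, 3 lower and a median of -0.61 without doublets), 1 of 10 higher in macrophage-like and 3 of 10 in T cell-like cells (1 of 10 without doublets). Among the relatives of the members, 3 of 5 were at least 2-fold higher in T cell-like cells (1 of 4 without doublets) and 1, *Cdkn1c*, lower in microglia-like cells.

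**Figure D5:**
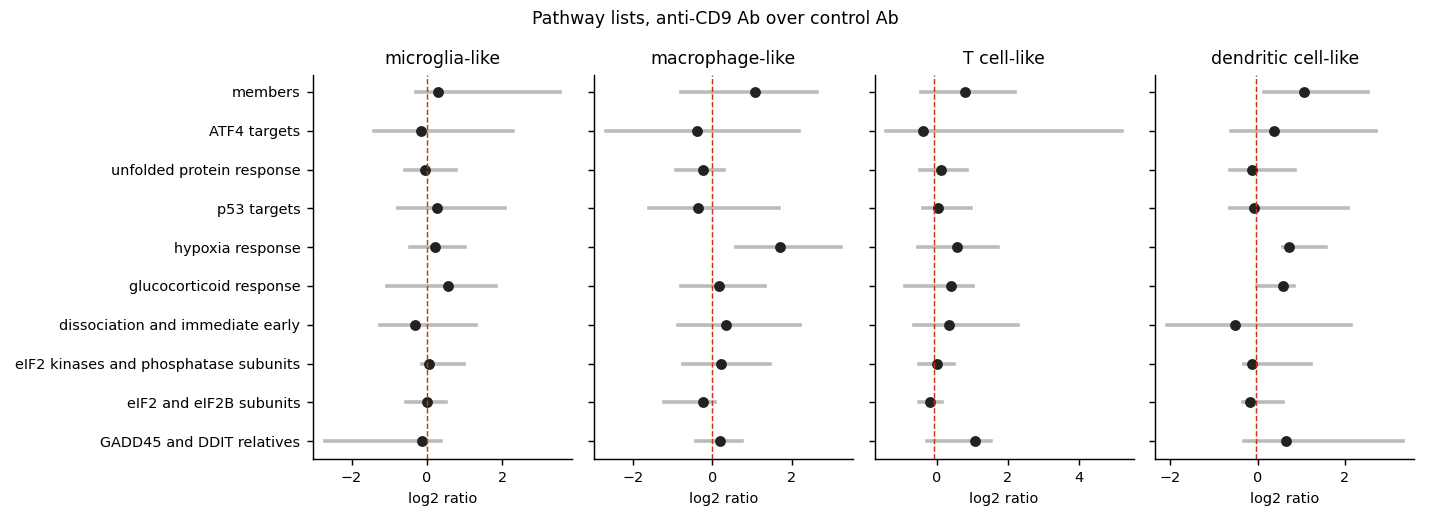
Median (point) and range (grey line) of the log2 ratios (anti-CD9 Ab to control Ab) of each gene list in 4 cell types, over genes with 50 or more UMIs. The dashed line is the median of all genes; the hypoxia list sits at a median of 1.69 in macrophage-like cells and the ATF4 targets at -0.39.

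Over 19 combinations of named cell type and library with 50 or more cells, *P2ry2*, a nucleotide receptor, had the profile most like *Gdf15* among 11836 genes (r = 0.918 on log2(CPM + 10)). It was followed by *Mrgpra2a*, *Thbs1*, *Cxcl1*, *Hilpda*, *Gm41409*, *Il1rn*, *Acta2*, *Gm53692* and *Ankrd66* (r from 0.866 down to 0.793 after *Mrgpra2a* at 0.877). Among the members, *Gadd45a* ranked 32 (r = 0.745), *Gadd45b* 54 (0.725), *Cdkn1a* 291 (0.573), *Ddit3* 629 (0.450), *Atf4* 1497 (0.276) and *Ddit4* 2427 (0.162). The combinations share libraries and differ in depth, and the neutrophil-like cells of the anti-CD9 Ab library held the highest *Gdf15* level among them, so these correlations are a description only.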

How the data were processed

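The authors deposited raw UMI counts per gene and barcode, made with Cell Ranger. The submitters' processing notes name Cell Ranger 8.0.0 and GRCm39, while the methods of the study name another version and build, so the build of the counts is uncertain. Cells with 200 to 7500 genes and no more than 2% mitochondrial UMIs were kept, as in the study. The libraries were integrated by anchors in Seurat 5.3.0 (R 4.3.3; 2000 variable genes without members and pathway genes, 30 components) and clustered at a resolution of 0.8. Clusters were named where at least 50% of a type's markers, and 3 or more, were up 2-fold over all other cells. Only markers found in 10% or more of the cluster's cells were counted. A type with a clearly higher share of markers barred a name. That margin was widened from 20 to 25 percentage points after the clusters had been seen, because the macrophage cluster otherwise lost its name without integration; it changed no name in the main clustering. Doublets were scored from simulated doublets, at 0.8% of barcodes per 1000, and were left out only where stated. That scoring used the most variable genes of each library, with no members, list genes or markers withheld. How far this shaped the values without doublets was not tested. UMIs were summed per cell group and library (Python 3.11.15, NumPy 2.4.6, SciPy 1.17.1) and given as CPM with exact Poisson intervals, and shares with exact binomial (Clopper-Pearson) intervals. Ratios are log2 of the CPM ratio. A count of 0 was set to 3 UMIs and then gives an approximate bound. Genes with 50 or more UMIs over both libraries entered counts of genes past 2-fold. A gene could pass that limit through 1 library alone, so the member and list counts are a description only. The ratio step was tested on simulated Poisson counts, drawn for each gene independently. UMIs clumped in few cells, as those of *Gdf15* were, were not imitated there, and the printed intervals do not cover such clumping. With 1 library per group, no p-value was computed. The members and all gene lists were chosen with earlier results of these data known. Genes of a list were named as the 2 highest and 2 lowest ratios; leading genes, listed markers, the 10 genes most like *Gdf15*, and *Asns*, *Chac1*, *Ptprc*, *Hspa1a*, *Hspa1b* and *Fos*, some of them after their values were seen, were also named. Of the listed symbols, 1 was not found among the features. *Ddit3* overlaps a second annotated locus, so its counts may miss shared reads.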

Additional observations from a re-analysis of the deposited data

Results flagged for a closer look

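Barcodes outside the quality limits numbered 4778 with control Ab and 6011 after anti-CD9 Ab. They were compared above only in brief, beside the values over all kept cells, and their values are given here. Of 13664 genes with 50 or more UMIs in them, 17.2% were higher with anti-CD9 Ab by intervals that did not overlap and 36.1% were lower. By the same criterion 6 of the 8 members were higher and 1, *Ddit3*, was lower, at 34.2 CPM (31.1 to 37.5) and 26.4 CPM (24.1 to 28.9). *Trib3* was at 3.21 and 3.08 CPM, with overlapping intervals. *Gdf15* was at 1.75 CPM (1.11 to 2.63) and 7.16 CPM (5.98 to 8.5), and *Gadd45b* at 25.03 and 115 CPM. *Gadd45a* was at 10.4 and 18.3 CPM, *Ddit4* at 24.0 and 41.5, *Atf4* at 58.8 and 71.4, and *Cdkn1a* at 22.3 and 62.5.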

How the results depend on the processing

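No paired analysis was possible because each antibody had 1 library and the result comes from no test. The *Gdf15* log2 ratio over all kept cells (5.09) was 4.28 with a mitochondrial limit of 5%, 4.31 over all barcodes, 6.68 as a mean of per-cell CPM, 5.92 in cells thinned to 1000 UMIs and, a choice made after seeing the data, 2.92 without neutrophil-like and Gdf15-led cells. The share of anti-CD9 Ab *Gdf15* UMIs in neutrophil-like cells (25.4%) was 30.2% at the 5% limit, 29.0% without doublets, 37.8% with 20 components, and 82.5% when members and pathway genes could enter the variable genes. Counting the Gdf15-led cluster as neutrophil-like, chosen after seeing the data, gave 81.9%. The member median in macrophage-like cells (1.06) was -0.04 at a resolution of 1.2, where the macrophage name fell to 171 and 538 cells and a monocyte-like group of 29 and 699 appeared, and 0.14 with cells chosen one by one. The cause of the other shifts was not tested. The other 52 of 64 alternative values stayed within the interval of the main value. They include all 12 each for the member medians in microglia-like and T cell-like cells and the ATF4 target median. For a median over genes, that interval ran from the median of the genes' lower limits to the median of their upper limits. It is not a counting interval of the median itself. Without integration, the macrophage value exists only with the margin widened after the clusters were seen. Values from few UMIs, such as *Trib3* and *Gdf15* in control Ab neutrophil-like cells, are limited by depth.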
